A study of Mus musculus with 8 samples.

Results

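The mitochondrially encoded genes were taken as all rows of the count table placed on the mitochondrial chromosome. They comprised 13 protein-coding genes, 2 rRNA genes and 22 tRNA genes, 37 of the 53700 genes in the table. They were followed in RNA bound to GFP-tagged ribosomes of mouse skin before and after wounding. All mice carried AdipoqCreER, a tamoxifen-inducible Cre recombinase driven by the adiponectin gene that is active in fat cells, and the Cre-dependent reporter R26-NuTRAP, and all were given tamoxifen. NuTRAP puts EGFP on a protein of the cytosolic ribosome. Mice were 7 to 9 weeks old, and each wounded animal received 4 full-thickness wounds made with a 5 mm punch. The groups were uninjured skin (n = 3), skin 3 days after wounding (n = 2) and skin 7 days after wounding (n = 3). A Cre-negative pull-down and total RNA of the same skin were not analysed here. Nothing in the labels says whether libraries of a group came from separate animals, so p-values measure the spread between these libraries.

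Mitochondrial DNA is transcribed from both strands into long RNAs, and the tRNAs that lie between the other genes mark where these are cut. The 13 mRNAs encode core subunits of respiratory complexes I, III, IV and V and are translated inside the organelle, on ribosomes built from the mitochondrial rRNAs and imported proteins. Mitochondrial RNA is therefore not a known client of the tagged cytosolic ribosome, and adipocytes use the respiratory chain for fatty acid oxidation and for the energy that lipid storage needs.

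The compactness of this genome limits how its rows can be counted, and a few sequences show why. They are from the GENCODE M21 transcripts of GRCm38, and all 37 rows had the same start, end and strand there. mt-Atp8 and mt-Atp6, both subunits of the ATP synthase (complex V), share 43 bases in different reading frames, shown in capitals in mt-Atp8 (chrM:7766-7969, + strand).
mt-Atp8: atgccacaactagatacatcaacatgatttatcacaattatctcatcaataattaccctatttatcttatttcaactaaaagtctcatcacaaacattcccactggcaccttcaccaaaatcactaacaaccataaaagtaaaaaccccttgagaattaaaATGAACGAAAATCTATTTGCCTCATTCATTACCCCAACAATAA
mt-Nd5 and mt-Nd6, both complex I subunits, lie on opposite strands and overlap by 14 bases. The last 40 bases of each (chrM:13526-13565, + strand, and chrM:13552-13591, - strand) are shown with the overlap in capitals, where each is the reverse complement of the other.
mt-Nd5: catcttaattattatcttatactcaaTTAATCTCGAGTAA
mt-Nd6: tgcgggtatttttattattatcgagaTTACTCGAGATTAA
mt-Nd6 is the single protein-coding gene on the - strand. Whether the counting used strand is not stated in any label or header, and reads from either strand cannot be told apart at such places. Some genes end in a lone T (in capitals, last 22 bases) that becomes a stop codon when the poly(A) tail is added. This was so for mt-Co3 (chrM:9369-9390), mt-Nd4 (chrM:11523-11544) and mt-Cytb (chrM:15267-15288), all on the + strand.
mt-Co3: tccatttattgatgaggatctT
mt-Nd4: ctaattacaggcctgacaataT
mt-Cytb: aaaatactaaaattatatccaT
The other 2 complex IV genes carry a full TAA, in capitals in the last 21 bases of mt-Co1 (chrM:6852-6872) and mt-Co2 (chrM:7676-7696), also on the + strand.
mt-Co1: acctatgtaaaagtaaaaTAA
mt-Co2: tgatctgcttcaataattTAA
Among the protein-coding genes GC content ran from 31.9% in mt-Atp8 to 41.1% in mt-Nd4l. The share of A was 22.2% in mt-Nd6, against 29.5% to 40.7% in the other protein-coding genes.

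The libraries held 5308959 to 17751689 counts. Values are given in CPM, which are counts scaled to a common library total after TMM normalization (trimmed mean of M values). Adipocyte markers were abundant in all libraries: Adipoq, the adiponectin gene, was at 4908 to 5404 CPM in uninjured, 3329 and 3838 CPM in day 3 and 1803 to 5177 CPM in day 7 libraries, and Fabp4 at 15363 to 30925 CPM over all libraries. Markers of other cell types were also present. The 12 skeletal muscle markers, led by Acta1 and Tnnt3, summed to 4995 to 10714 CPM in uninjured, 2983 and 5052 CPM in day 3 and 824 to 1512 CPM in day 7 libraries. The 10 fibroblast markers, led by Col3a1 and Col1a2, summed to 1707 to 2230 CPM in uninjured, 1708 and 5038 CPM in day 3 and 6834 to 13432 CPM in day 7 libraries. The 8 luminal epithelium markers, led by Krt18 and Krt19, summed to 11.7 to 26.5 CPM in uninjured libraries, 1542 and 20.95 CPM in day 3 libraries 1 and 2, and 549 to 1194 CPM in day 7 libraries, so the day 3 libraries stood far apart in them. The values below are thus of the recovered RNA, and fewer cells of a type and less RNA per cell cannot be told apart. A numeric prefix in the column headers differs by group, and its part and that of the group cannot be told apart.

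Mitochondrial RNA made up a small share of each library. All 37 genes held 0.0564%, 0.0687% and 0.0454% of counts in uninjured libraries 1, 2 and 3, 0.0703% and 0.0881% in day 3 libraries 1 and 2, and 0.172%, 0.188% and 0.0722% in day 7 libraries 1, 2 and 3. Values below follow this order of libraries within a group. Day 7 libraries 1 and 2 stood above the other 6, and day 7 library 3 lay close to the day 3 libraries and to uninjured library 2. The 95% exact (Clopper-Pearson) interval of day 7 library 3, 0.0705% to 0.0740%, lay above that of uninjured library 2, 0.0675% to 0.0699%, for counting error alone. The mean share was 0.0569% ± 0.0116 in uninjured skin (SD, n = 3), 0.0792% ± 0.0126 at day 3 (n = 2) and 0.144% ± 0.0627 at day 7 (n = 3). Sums over the genes were not tested.

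The rRNA and the mRNA parts of this share differed in their pattern over the groups. The 2 rRNAs took 0.00513%, 0.0147% and 0.00528% of counts in uninjured libraries, 0.0229% and 0.0331% in day 3 libraries, and 0.0653%, 0.0637% and 0.0155% in day 7 libraries. No wounded library was below the highest uninjured one, which was uninjured library 2. The 13 protein-coding genes took 0.0510%, 0.0535% and 0.0399% in uninjured libraries, 0.0470% and 0.0541% in day 3 libraries, and 0.106%, 0.1229% and 0.0562% in day 7 libraries. Here the day 3 libraries lay within or close to the uninjured range, and day 7 library 3 was just above it. Of the difference in mean share between day 3 and uninjured skin, 0.0224 percentage points, 0.00275 points remained once the rRNAs were left out. With the rRNAs, the difference was 0.0135 points without day 3 library 2 and 0.0313 points without day 3 library 1.

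**Figure D1:**
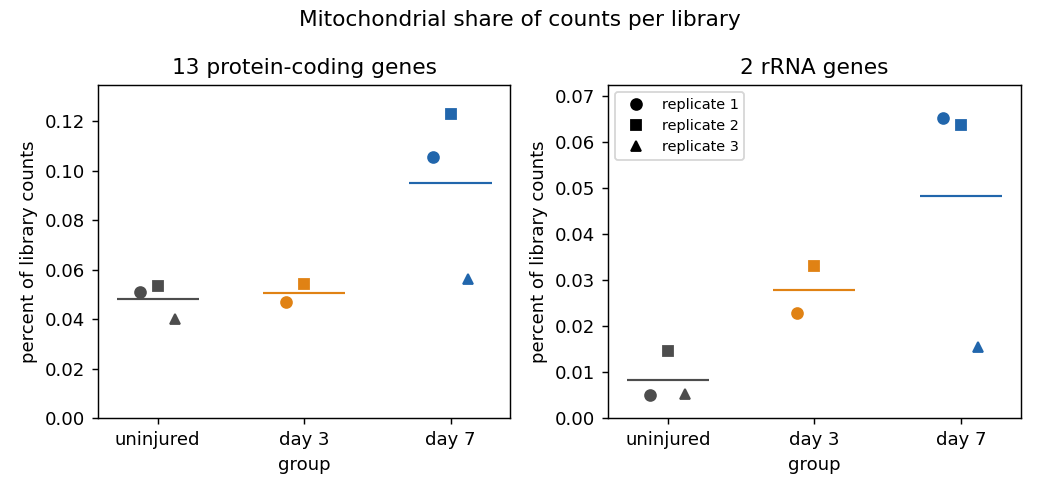
Percent of library counts held by the 13 mitochondrial protein-coding genes (left) and by the 2 rRNA genes (right), by group, with 1 point per library, shapes for replicate numbers and lines for group means. The protein-coding share of day 3 libraries (0.0470% and 0.0541%) lies beside the uninjured ones, while their rRNA share (0.0229% and 0.0331%) lies above all uninjured libraries.

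At 7 days against uninjured, 4 of the 16 mitochondrial genes tested rose and none fell. The genes that rose were both rRNAs, mt-Rnr1 and mt-Rnr2, and 2 of the 3 complex IV genes, mt-Co1 and mt-Co2. Calls rest on edgeR's quasi-likelihood F test with Benjamini-Hochberg adjustment over 18656 genes at 0.05. At this threshold 5.9% of all genes tested were called higher and 1.77% lower. The 16 genes are those that passed the filter on low counts: 12 of 13 protein-coding genes, both rRNAs and 2 of 22 tRNAs. Of these, mt-Atp8, mt-Tq and mt-Ts1 passed only with the wounded libraries. The filter thus favoured values above 0 for these genes against uninjured. All 16 log2 fold changes were above 0, with a median of 0.90 against 0.04 over all genes. Without the filter, 24 mitochondrial genes were tested, with a median of 0.80 against 0.11 over all genes. However, mt-Nd1, mt-Nd2, mt-Atp8, mt-Nd4 and mt-Nd5 turned below 0 when libraries were scaled to their mitochondrial protein-coding total. That scale removes what the mRNAs share. For 6 of the 16, all day 7 libraries were above all uninjured ones, which held for 16.7% of all genes.

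mt-Rnr2, the large rRNA of the mitochondrial ribosome (chrM:1094-2675, + strand), was at 443, 498 and 146 CPM in day 7 libraries, against 47.4, 141 and 51.6 CPM in uninjured libraries. The groups came close to each other in day 7 library 3 and uninjured library 2. Its log2 fold change was 2.17 ± 0.51 (SE), 4.51-fold, with an edgeR adjusted p of 0.0292. mt-Rnr1, the small rRNA of the same ribosome (chrM:70-1024, + strand), was at 57.6, 54.8 and 18.1 CPM in day 7 libraries, against 6.71, 18.1 and 8.52 CPM in uninjured libraries. Day 7 library 3 and uninjured library 2 had nearly the same value, so the groups overlapped. Its log2 fold change was 1.95 ± 0.48, 3.85-fold, with an edgeR adjusted p of 0.0341. The counts of mt-Rnr2 were 6.05 to 9.09 times those of mt-Rnr1 in all 8 libraries.

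Complex IV, cytochrome c oxidase, takes its catalytic core from mt-Co1, mt-Co2 and mt-Co3. mt-Co1 (chrM:5328-6872) was at 129, 179 and 121 CPM in day 7 libraries, against 68.2, 83.2 and 60.4 CPM in uninjured libraries. The lowest day 7 library was well above the highest uninjured one, and the log2 fold change was 1.02 ± 0.23, 2.03-fold, with an edgeR adjusted p of 0.0252. mt-Co2 (chrM:7013-7696) was at 29.0, 38.0 and 17.6 CPM in day 7 libraries, against 9.27, 13.4 and 7.22 CPM in uninjured libraries. Its groups were also apart, with a log2 fold change of 1.49 ± 0.33, 2.81-fold, and an edgeR adjusted p of 0.0239. mt-Co3 (chrM:8607-9390) was at 31.0, 43.2 and 21.2 CPM in day 7 libraries, against 14.9, 21.8 and 10.8 CPM in uninjured libraries. Its log2 fold change of 1.00 ± 0.32 missed the threshold (edgeR adjusted p = 0.0807), and day 7 library 3 lay just under uninjured library 2.

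Complex III has 1 mitochondrial gene, mt-Cytb, the cytochrome b subunit (chrM:14145-15288). It was at 153, 199 and 109 CPM in day 7 libraries, against 94.7, 95.2 and 73.8 CPM in uninjured libraries. The groups did not overlap, yet the log2 fold change of 0.81 ± 0.25 missed the threshold (edgeR adjusted p = 0.0720). Of the complex V genes, mt-Atp6, part of the proton channel, was at 16.3, 28.1 and 12.5 CPM in day 7 libraries, against 10.2, 14.2 and 8.38 CPM in uninjured libraries (log2 fold change 0.79, edgeR adjusted p = 0.178). mt-Atp8 had 2 to 30 counts in any library and a log2 fold change of 0.63 ± 0.67, so its SE exceeded its change.

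Complex I, NADH dehydrogenase, takes 7 membrane subunits from mitochondrial DNA, and none of the 6 tested passed at day 7. mt-Nd6 (chrM:13552-14070, - strand) was at 72.6, 91.3 and 43.8 CPM in day 7 libraries, against 40.3, 42.7 and 38.6 CPM in uninjured libraries. Its groups were apart by little, with a log2 fold change of 0.77 ± 0.26 and an edgeR adjusted p of 0.0913. mt-Nd1 was at 165, 213 and 119 CPM in day 7 libraries, against 114, 122.9 and 103 CPM in uninjured libraries (log2 fold change 0.55, edgeR adjusted p = 0.169). mt-Nd4, mt-Nd5 and mt-Nd2 had log2 fold changes of 0.36, 0.19 and 0.13, each with overlapping groups. mt-Nd3 had the largest fold change of the 6, 1.58 ± 0.65, on 5 to 81 counts per library (edgeR adjusted p = 0.149). mt-Nd4l had 2 to 8 counts per library, did not pass the filter and was not tested.

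DESeq2 called 6 at day 7, the same 4 with mt-Co3 and mt-Cytb, where it called 10.1% of all genes higher and 3.84% lower. The calls at day 7 depended on single libraries. Without day 7 library 1, day 7 library 2, uninjured library 1 or uninjured library 3, 0 of 16 genes passed, where 1.28% to 1.75% of all genes were called higher. Without day 7 library 3, 9 passed: the 4 named above, mt-Nd1, mt-Co3, mt-Nd6, mt-Cytb and the tRNA gene mt-Ts1. Of these, mt-Ts1 is one of the genes that the filter favoured. Calls were more frequent throughout that fit, with 14.2% of all genes higher and 7.79% lower. Across the fits that left out 1 library each, the log2 fold change of mt-Rnr2 ran from 1.89 to 2.87 (highest edgeR adjusted p 0.113) and that of mt-Rnr1 from 1.68 to 2.52 (0.126). That of mt-Co1 ran from 0.85 to 1.16 (highest edgeR adjusted p 0.111) and that of mt-Co2 from 1.24 to 1.77 (0.109).

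**Figure D2:**
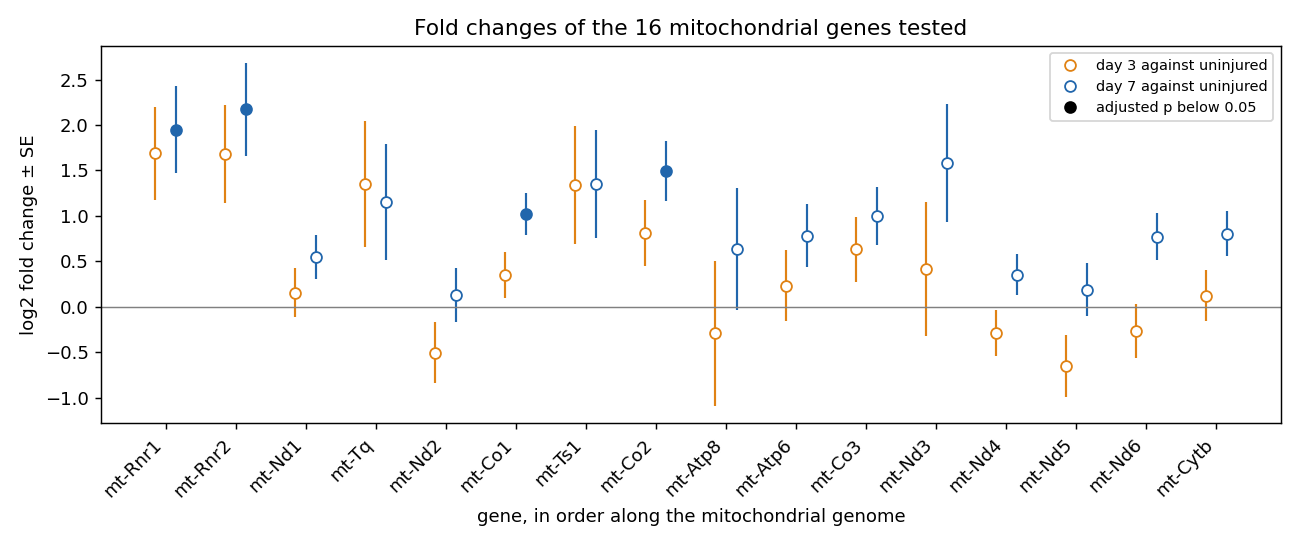
Log2 fold change with SE for the 16 mitochondrial genes tested, in genome order, for day 3 against uninjured (orange) and day 7 against uninjured (blue), which share the uninjured libraries; filled points passed an adjusted p of 0.05. The day 7 values of mt-Rnr1 (1.95), mt-Rnr2 (2.17), mt-Co1 (1.02) and mt-Co2 (1.49) are filled, and no day 3 value is.

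At 3 days, edgeR called none of the 16 genes against uninjured, where it called 0.0107% of all genes higher and 0% lower. Unadjusted, 3 of the 16 had p under 0.05, both rRNAs and mt-Co2, against 13% of all genes. Of the log2 fold changes 11 were above and 5 below 0, with a median of 0.29 against 0.02 over all genes. mt-Rnr2 was at 223 and 293 CPM in day 3 libraries, against 47.4, 141 and 51.6 CPM in uninjured libraries. mt-Rnr1 was at 27.1 and 45.4 CPM in day 3 libraries, against 6.71, 18.1 and 8.52 CPM in uninjured libraries. Both rRNAs were above all uninjured libraries, with log2 fold changes of 1.68 ± 0.54 (edgeR adjusted p = 0.262) and 1.69 ± 0.51 (edgeR adjusted p = 0.242). DESeq2 called both, with adjusted p of 0.0453 for mt-Rnr2 and 0.0482 for mt-Rnr1, and no other mitochondrial gene. Leaving out 1 library at a time, edgeR called neither in any of 8 fits, with log2 fold changes of 1.44 to 2.38 for mt-Rnr2 and 1.25 to 2.26 for mt-Rnr1. DESeq2 called 1.75% of all genes higher and 0.568% lower.

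The mRNAs at 3 days lay on both sides of the uninjured libraries. mt-Co2 was at 17.3 and 18.0 CPM in day 3 libraries, against 9.27, 13.4 and 7.22 CPM in uninjured libraries (log2 fold change 0.81 ± 0.36, edgeR adjusted p = 0.382). mt-Co1 was at 83.1 and 97.5 CPM in day 3 libraries, overlapping the uninjured range of 60.4 to 83.2 CPM. mt-Nd2 was at 45.9 and 43.4 CPM in day 3 libraries, against 67.9, 74.2 and 47.2 CPM in uninjured libraries, below all of them (log2 fold change -0.50 ± 0.34, edgeR adjusted p = 0.542). mt-Nd4 and mt-Nd6 were likewise below all uninjured libraries, with log2 fold changes of -0.28 and -0.27. All day 3 libraries were above all uninjured ones for 5 of the 16 genes and below for 3, against 16.9% and 17.2% of all genes.

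Between 7 and 3 days, edgeR called none of the 16, where 0.0643% of all genes were called higher and 0.0214% lower, and DESeq2 called none of them either, where it called 0.788% of all genes higher and 0.423% lower. Unadjusted, 5 of the 16 had p under 0.05, all of them protein-coding, against 11% of all genes. Of the 16 log2 fold changes 15 were above 0, with a median of 0.64 against 0.08 over all genes. When libraries were scaled to their mitochondrial protein-coding total, which removes what the mRNAs share, 7 of the 16 changed sign. The lowest p belonged to mt-Nd6, at 72.6, 91.3 and 43.8 CPM in day 7 libraries, against 32.7 and 34.6 CPM in day 3 libraries (log2 fold change 1.04 ± 0.30, edgeR adjusted p = 0.336). The rRNAs overlapped between these times, with log2 fold changes of 0.49 ± 0.55 for mt-Rnr2 and 0.26 ± 0.52 for mt-Rnr1.

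Set against the mitochondrial mRNAs of the same library, the rRNA counts were higher after wounding. The libraries were made with a kit for mRNA, and how fully rRNA was captured is not known. The ratio of rRNA to protein-coding counts was 0.101, 0.274 and 0.132 in uninjured libraries, 0.487 and 0.611 in day 3 libraries, and 0.618, 0.519 and 0.276 in day 7 libraries. Day 7 library 3 and uninjured library 2 again nearly met. When libraries were scaled to their mitochondrial protein-coding total in place of TMM, both rRNAs rose at day 7, mt-Rnr2 with a log2 fold change of 1.502 ± 0.47 (edgeR adjusted p = 0.0380) and mt-Rnr1 with 1.28 ± 0.41 (edgeR adjusted p = 0.0405). No mRNA passed on that scale, mt-Co1 having 0.40 (edgeR adjusted p = 0.455) and mt-Co2 0.84 (edgeR adjusted p = 0.111). The scale is the sum of the mRNAs themselves, so it removes what they share and they cannot all rise on it. This scaling moved the median of all genes to -0.54 and called 4.39% of them higher and 6.91% lower. At 3 days mt-Rnr1 passed on it with 1.69 ± 0.45 (edgeR adjusted p = 0.0431) and mt-Rnr2 did not with 1.70 ± 0.51 (edgeR adjusted p = 0.0905), where 1.56% of all genes were called higher and 0.161% lower.

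The mix of mRNAs also differed. Complex IV genes made up 17.1%, 20.3% and 17.2% of mitochondrial protein-coding counts in uninjured libraries, 24.3% and 25.4% in day 3 libraries, and 23.4%, 24.5% and 26.9% in day 7 libraries. Complex I genes made up 63.1%, 60.7% and 64.5% in uninjured libraries, 55.7% and 53.6% in day 3 libraries, and 55.5%, 54.0% and 52.4% in day 7 libraries. For both complexes every wounded library lay outside the uninjured range, day 7 library 3 included. Within complex I, mt-Nd4 averaged 14.6% ± 0.938 of protein-coding counts in uninjured skin (SD, n = 3), 11.8% ± 0.390 at day 3 (n = 2) and 12.04% ± 0.638 at day 7 (n = 3). mt-Nd2 averaged 11.9% ± 1.32 in uninjured skin, 8.38% ± 0.783 at day 3 and 8.25% ± 1.32 at day 7. mt-Cytb averaged 16.7% ± 0.740 in uninjured skin, 17.9% ± 1.21 at day 3 and 18.6% ± 0.230 at day 7. These shares were not tested, and a share can be higher only where another is lower.

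**Figure D3:**
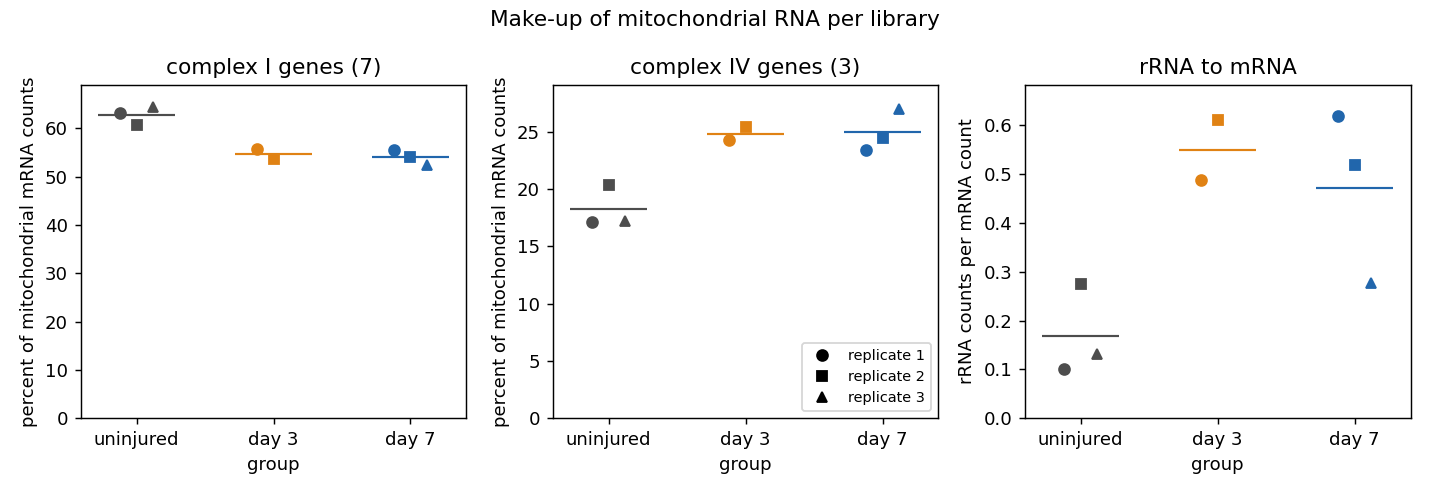
Make-up of mitochondrial RNA in each library: percent of mitochondrial protein-coding counts in the 7 complex I genes (left) and the 3 complex IV genes (middle), and rRNA counts per protein-coding count (right), with lines for group means. Complex IV lies at 23.4% to 26.9% in wounded and 17.1% to 20.3% in uninjured libraries, and complex I at 52.4% to 55.7% in wounded and 60.7% to 64.5% in uninjured libraries.

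Levels per length (TPM, counts divided by the length column of the table and scaled to a common total) spread widely along a genome whose mRNAs come from shared precursors. Mean TPM of mt-Nd1, the highest protein-coding gene in each group, was 219 ± 19.2 in uninjured skin (SD, n = 3), 236 ± 33.8 at day 3 (n = 2) and 427 ± 167 at day 7 (n = 3). In uninjured libraries mt-Nd6 (145 ± 8.001) and mt-Cytb (143 ± 22.3) came next and did not differ beyond their spread, followed by mt-Nd2 (113 ± 25.2), mt-Nd4 (103 ± 9.61) and mt-Co1 (84.4 ± 11.7). mt-Co3 (37.2 ± 11.8), mt-Nd5 (34.2 ± 12.3), mt-Atp6 (29.6 ± 7.06) and mt-Co2 (26.8 ± 7.48) lay within each other's spread. mt-Atp8 (10.1 ± 3.47), mt-Nd3 (8.23 ± 5.12) and mt-Nd4l (3.18 ± 1.55) were the lowest, and mt-Nd4l was last in all 3 groups. By mean TPM, mt-Co1 had rank 6 of 13 in uninjured skin and rank 4 at day 3 and day 7. mt-Co2 had rank 10 in uninjured skin, 8 at day 3 and 7 at day 7. These levels leave out reads assigned to the nuclear near copies described below, which 7 of the 13 genes have. In uninjured libraries mt-Atp6 averaged 10.9 CPM beside 11.9 CPM of its copy Gm10925. There mt-Co3 averaged 15.8 CPM beside 14.5 CPM of Gm28437, and mt-Co2 averaged 9.95 CPM beside 6.92 CPM of Gm28661. The part of read assignment in the order of genes was not tested.

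mt-Rnr2 was at 58.95, 157 and 59.9 TPM in uninjured libraries, 234 and 353 TPM in day 3 libraries, and 792, 781 and 176 TPM in day 7 libraries. mt-Nd1 was at 234, 226 and 198 TPM in uninjured libraries, 212 and 260 TPM in day 3 libraries, and 489, 553 and 238 TPM in day 7 libraries. By this measure mt-Rnr2 was below mt-Nd1 in all uninjured libraries and in day 7 library 3. It was above mt-Nd1 in both day 3 libraries and in day 7 libraries 1 and 2. As the libraries were made with a kit for mRNA, this compares counts and not amounts of RNA. Per base, mt-Nd6 had 3.26 to 7.74 times the counts of its opposite-strand neighbour mt-Nd5 in the 8 libraries. Counts of mt-Nd4l and mt-Atp8 were even in 8 of 8 libraries, and those of mt-Tq in 3 of 8. Over all genes off the mitochondrial chromosome, counts of 1 to 20 were even in 53.5% of cases for genes under 150 bases. The share was 62.6% for genes of 150 to 400 bases and 48.1% for genes of 2000 bases or more. Whether read pairs or single reads were counted is not given in the sources used here. Whether the lowest counts stand for fewer molecules was not tested.

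**Figure D4:**
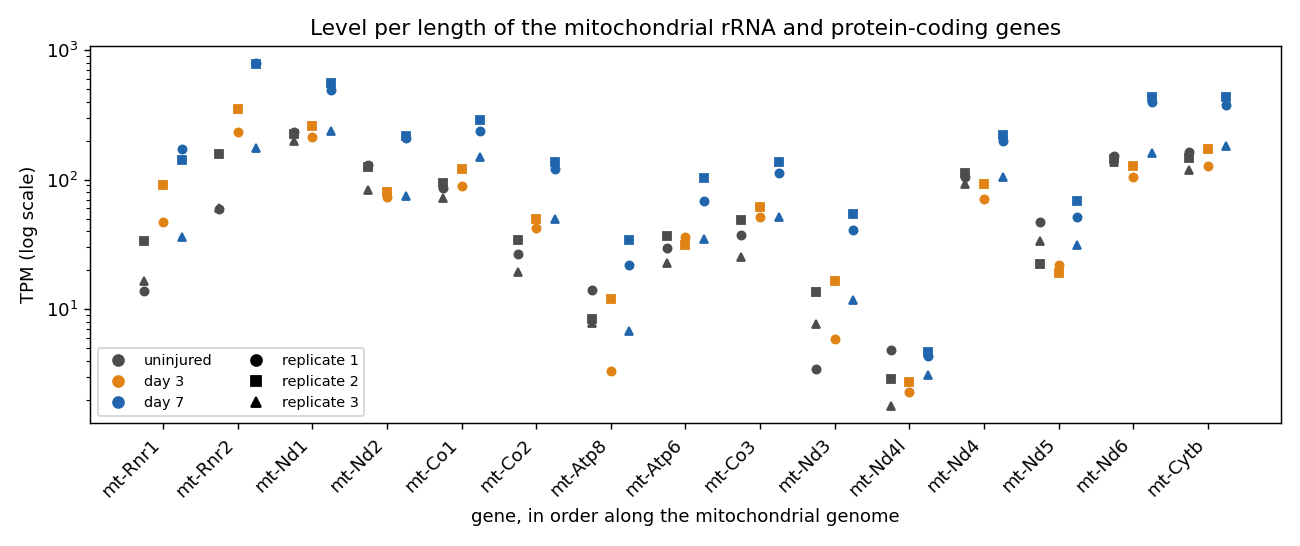
Level per length (TPM, log scale) of the 2 rRNA and 13 protein-coding genes in genome order, with 1 point per library, colours for groups and shapes for replicate numbers. mt-Nd1 is the highest protein-coding gene and mt-Nd4l the lowest in each group. mt-Nd3 (3.44 to 53.9 TPM) and the rRNAs span the widest ranges between libraries. Reads assigned to nuclear near copies are not included.

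The 22 tRNA genes held 474 counts over all libraries, and 9 of them had any count. The 8 tRNA genes of the - strand, which lie opposite most of the other genes, held 465 counts (98.1%), and the 14 of the + strand held 9 (1.90%). mt-Tq and mt-Ts1, the tRNA genes for glutamine and for one group of serine codons, held 350 (73.8%). They were the ones that passed the filter, and only with the wounded libraries. Both reach into a + strand neighbour by 3 bases, shown in capitals: mt-Tq (chrM:3772-3842, - strand) into mt-Ti and mt-Ts1 (chrM:6870-6938, - strand) into the end of mt-Co1, whose TAA stop is shown above.
mt-Tq: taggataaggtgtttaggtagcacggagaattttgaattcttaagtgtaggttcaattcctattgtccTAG
mt-Ts1: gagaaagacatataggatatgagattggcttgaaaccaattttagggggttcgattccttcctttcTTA
mt-Tq had 8, 40 and 3 counts in uninjured libraries, 11 and 43 in day 3 libraries, and 34, 37 and 15 in day 7 libraries. mt-Ts1 had 8, 19 and 8 counts in uninjured libraries, 8 and 36 in day 3 libraries, and 37, 33 and 10 in day 7 libraries. At day 7 against uninjured the log2 fold changes were 1.15 ± 0.64 for mt-Tq and 1.35 ± 0.59 for mt-Ts1, with edgeR adjusted p of 0.264 and 0.173. Of the others, mt-Tp had 52, mt-Te 43 and mt-Tc 14 counts in all, and 13 had none. A count of tRNA rows does not measure mature tRNA, which libraries of this kind are not made to capture.

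Near-identical nuclear copies may share reads with some of the genes. A search of the transcripts for at least 99% identity over at least 200 bases found 7 copies of 7 mitochondrial genes, all on chromosome 1, of which 5 had no mismatch: Gm10925 (mt-Atp6), Gm28661 (mt-Co2), Gm28437 (mt-Co3), Gm28439 (the first 876 bases of mt-Nd4) and Gm10222 (mt-Nd4l). Gm29216 matched 483 bases of mt-Co1 with 1 difference, A1066T, and Gm28438 matched mt-Nd3 with T3C, where the mitochondrial base comes first and positions count from the first base of the mitochondrial gene. A stretch of 60 bases of mt-Co1 (chrM:6390-6449, + strand) and of Gm29216 shows how little separates them, with the differing base in capitals.
mt-Co1: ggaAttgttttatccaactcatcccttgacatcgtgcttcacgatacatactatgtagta
Gm29216: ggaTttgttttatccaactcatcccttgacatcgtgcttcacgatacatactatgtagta
The copies ranged from somewhat above the level of their counterparts to far below it. In day 7 libraries Gm28439 averaged 3.38 CPM beside 98.1 CPM of mt-Nd4, Gm29216 averaged 36.6 CPM beside 143 CPM of mt-Co1, and Gm28661 averaged 15.6 CPM beside 28.2 CPM of mt-Co2. Gm10925 averaged 21.2 CPM there beside 18.9 CPM of mt-Atp6. Gm28437 was at 10.5, 20.4 and 12.7 CPM in uninjured libraries, 20.4 and 24.9 CPM in day 3 libraries, and 33.8, 43.8 and 19.6 CPM in day 7 libraries, beside mt-Co3 at 14.9, 21.8 and 10.8 CPM in uninjured, 24.3 and 25.2 CPM in day 3 and 31.0, 43.2 and 21.2 CPM in day 7 libraries. How reads that match both places were assigned is not given in the sources used here. With each copy added to its counterpart, the same 4 genes passed at day 7, mt-Co1 with a log2 fold change of 1.07 ± 0.24 (edgeR adjusted p = 0.0233) and mt-Co2 with 1.37 ± 0.32 (edgeR adjusted p = 0.0303). mt-Co3 then had 1.08 ± 0.31 (edgeR adjusted p = 0.0588). Complex IV genes then made up 30.0% to 32.4% of protein-coding counts in wounded and 20.6% to 25.9% in uninjured libraries, and complex I genes 47.6% to 49.1% in wounded and 55.0% to 60.0% in uninjured libraries.

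Nuclear genes that work with the mitochondrial ones had mostly negative log2 fold changes at day 7. Of 82 nuclear subunits of complexes I to V tested at day 7 against uninjured, 1 rose and 2 fell. Of all genes 5.9% were called higher there and 1.77% lower. Unadjusted, 6 of the 82 had p under 0.05, against 26.7% of all genes. Their log2 fold changes were below 0 for 74 of the 82, with a median of -0.31 against 0.04 over all genes. All 3 that passed belong to complex IV and are forms used in particular tissues. Cox6b2, a form known from testis, was at 7.36, 6.16 and 7.07 CPM in day 7 libraries, against 1.71, 2.63 and 0.867 CPM in uninjured libraries (3.81-fold, edgeR adjusted p = 0.0331). Cox6a2, a form of heart and skeletal muscle, was at 29.8, 51.2 and 61.6 CPM in day 7 libraries, against 552, 302 and 203 CPM in uninjured libraries (log2 fold change -2.89 ± 0.40, edgeR adjusted p = 0.00410). Cox7a1, a form of muscle and brown fat, was at 14.3, 17.5 and 19.2 CPM in day 7 libraries, against 116, 57.1 and 44.9 CPM in uninjured libraries (log2 fold change -2.09 ± 0.44, edgeR adjusted p = 0.0209). Beside these falls, 11 of the 12 skeletal muscle markers fell, with a median log2 fold change of -2.54, and the part of muscle RNA in them was not tested. No subunit rose without day 7 library 1 or 2 or uninjured library 1 or 3, where 1.28% to 1.75% of all genes did. Cox7a1 did not pass without the first 3 of these libraries, and Cox6a2 passed in all 8 such fits. Without day 7 library 3, 16 subunits passed as lower and 2 as higher, with a median of -0.52, in a fit that called 7.79% of all genes lower and 14.2% higher. In that fit 5 of the 10 adipocyte markers, Adipoq among them, were also called lower, against 0 in edgeR with all libraries, where 3 had an unadjusted p under 0.05 and DESeq2 called 1.

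Of 81 mitoribosome proteins, the partners of the 2 rRNAs, Chchd1 fell at day 7 and none rose. Of all genes 1.77% were called lower there and 5.9% higher. Unadjusted, 15 of the 81 had p under 0.05, against 26.7% of all genes. DESeq2 called 4 of them lower, where it called 3.84% of all genes lower. Log2 fold changes were below 0 for 80 of the 81, with a median of -0.39. Chchd1, a small-subunit protein, was at 68.2, 75.1 and 105 CPM in day 7 libraries, against 148, 168 and 149 CPM in uninjured libraries (log2 fold change -0.91 ± 0.22, edgeR adjusted p = 0.0338). No mitoribosome protein passed without any 1 of day 7 library 1, day 7 library 2 and the 3 uninjured libraries. In those fits 0.409% to 1.1% of all genes were called lower. Without day 7 library 3, 22 passed as lower, where 7.79% of all genes did. None of 21 genes of mitochondrial transcription and DNA upkeep, 30 of RNA processing and stability, 30 of translation and 19 of the mitochondrial stress response passed in edgeR at day 7, with medians of -0.20, -0.29, -0.27 and -0.17. Unadjusted, 4, 3, 5 and 7 of them had p under 0.05, against 26.7% of all genes, so the first 3 lists lay below that share. DESeq2 called 1 lower, 1 lower and 1 higher in the first 3 lists, and 2 higher and 1 lower in the stress response list. It called 10.1% of all genes higher and 3.84% lower there. At day 3 against uninjured no gene of these lists or of the subunits passed in edgeR or DESeq2. Of the 82 subunits 12 had an unadjusted p under 0.05 there, near the 13% of all genes. Their log2 fold changes were above 0 for 79, with a median of 0.51, which rested on day 3 library 1: without it 36 were above 0, with a median of -0.0307. The sum of the 8 brown and beige fat markers was high in the same library, while single markers were mixed. At day 3 against uninjured, 3 of the 6 tested had log2 fold changes above 0 and 3 below, with a median of -0.34. The sum of the 8 was 568, 429 and 273 CPM in uninjured libraries, 1120 and 269 CPM in day 3 libraries, and 275, 319 and 351 CPM in day 7 libraries. Most of it was Cox8b, which is itself a complex IV subunit, and Ucp1, the uncoupling protein of brown fat, was at 5.55 CPM in day 3 library 1 and at 0 CPM in day 3 library 2. The part of brown or beige fat RNA in the subunit values was not tested.

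The sums show in which libraries the signs were opposite. Mitochondrial protein-coding CPM per 1000 CPM of nuclear subunits was 11.8, 11.4 and 9.38 in uninjured libraries, 5.61 and 11.6 in day 3 libraries, and 24.9, 30.7 and 11.7 in day 7 libraries. Day 7 libraries 1 and 2 were above all others, and day 7 library 3 and day 3 library 2 lay among the uninjured libraries. Day 3 library 1 was lowest, and its nuclear subunits summed to 91454 CPM, against 47953 CPM in day 3 library 2.

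**Figure D5:**
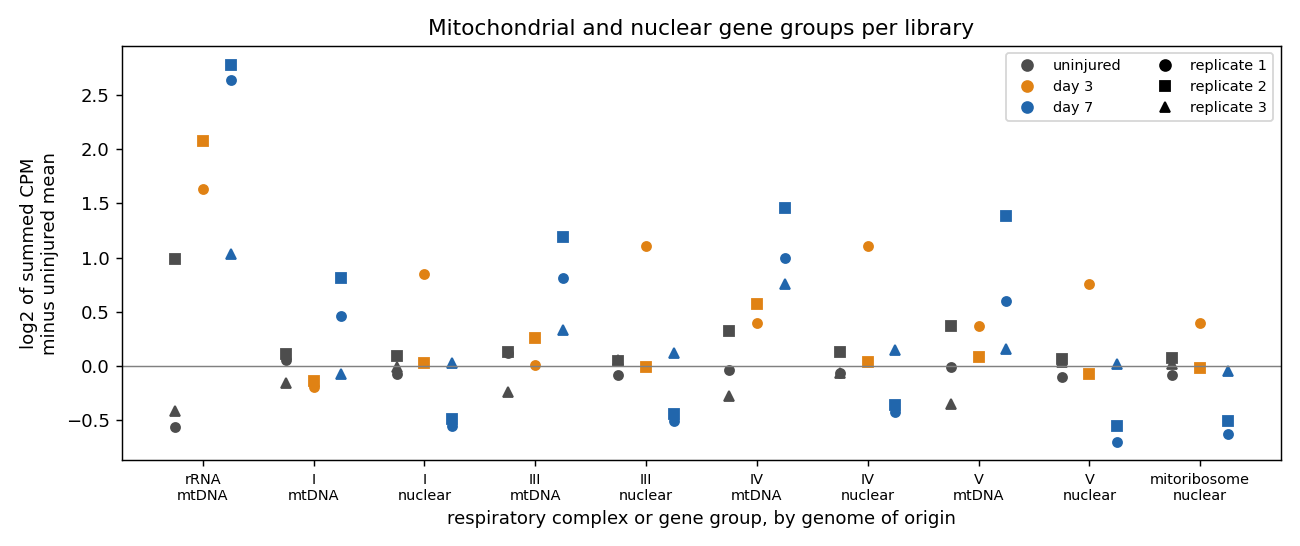
Summed CPM of mitochondrially encoded (mtDNA) and nuclear gene groups per library, with colours for groups and shapes for replicate numbers. Values are log2 minus the mean log2 of the uninjured libraries. In day 7 libraries 1 and 2 the mitochondrial sums lie above 0, and the nuclear sums plotted, which are those of complexes I, III, IV and V and the mitoribosome, lie below it; the rRNA sum reaches 2.64 and 2.78 there.

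Some other RNAs also differed between libraries, not all in the same order, and whether they moved with the mitochondrial RNA was not tested. Long nuclear RNAs that are not translated were highest in day 7 libraries 1 and 2. Malat1 was at 453, 468 and 450 CPM in uninjured libraries, 1077 and 1526 CPM in day 3 libraries, and 4348, 2511 and 885 CPM in day 7 libraries. At day 7 against uninjured Malat1 rose 5.65-fold (edgeR adjusted p = 0.0143) and Kcnq1ot1 rose 4.08-fold (edgeR adjusted p = 0.0479), 2 of 4 such RNAs tested. Neat1 had a log2 fold change of 1.52 (edgeR adjusted p = 0.0588). In that fit 5.9% of all genes were called higher. Without uninjured library 1 or 3 or day 7 library 1 or 2, 1.28% to 1.75% of all genes were. The share was 3.28% without uninjured library 2 and 14.2% without day 7 library 3. These shares also apply to the marker counts below. Without uninjured library 1 or uninjured library 3 none of the 4 RNAs passed, and without day 7 library 1 or 2 Malat1 alone did. Without uninjured library 2 Kcnq1ot1 alone passed, and without day 7 library 3 all of Malat1, Kcnq1ot1 and Neat1 did. Endothelial markers, led by Pecam1 and Egfl7, summed to 79.8, 172 and 87.8 CPM in uninjured libraries, 250 and 279 CPM in day 3 libraries, and 516, 491 and 138 CPM in day 7 libraries, and 8 of 10 rose at day 7. Of these markers 1 rose without uninjured library 3, 2 without uninjured library 1, day 7 library 1 or day 7 library 2, and 4 without uninjured library 2. Macrophage markers, led by Lyz2 and C1qb, summed to 161, 273 and 122.6 CPM in uninjured libraries, 272 and 1042 CPM in day 3 libraries, and 703, 1112 and 493 CPM in day 7 libraries, and 4 of 10 rose at day 7. None of these rose without uninjured library 1, 1 without uninjured library 3 or day 7 library 2, 2 without day 7 library 1, and 8 without day 7 library 3 or either day 3 library. TMM factors were 0.950, 0.922 and 0.880 for uninjured, 0.919 and 0.979 for day 3 and 1.31, 1.16 and 0.948 for day 7 libraries. The part of RNA from other cell types, or of untranslated RNA carried along, in the mitochondrial values was not tested.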

How the data were processed

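The authors deposited 1 table of raw read counts per gene, with a column for each of the 8 libraries of anti-GFP polysome RNA. Per the file headers, counting was done by featureCounts 2.0.8. Per the submitters' processing notes, STAR 2.7.10b, DESeq2 and mm10 were used, without a stated role. Libraries were made from 20 ng of RNA with a SMART-Seq mRNA kit, per the labels' protocols. Strand, read-pair and multi-mapping settings are not stated. Symbols and transcripts came from GENCODE M21, and groups from sample titles.

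The test was the two-sided quasi-likelihood F test of edgeR 4.0.16 (R 4.3.3) on TMM-normalised counts. It was fitted once over all 8 libraries with a mean per group, which leaves 5 residual degrees of freedom. Genes had to pass filterByExpr, with its minimum count at 10. The procedure was tested on simulated data. DESeq2 1.42.0 was an alternative. Near copies were found with BLAST 2.17.0, and merging them was chosen after seeing the data. Intervals are 95% exact binomial and cover counting error only. All 13 protein-coding and 2 rRNA genes are named. tRNA genes are named if they passed the filter or were among the 6 with the most counts. Nuclear list members are named if they passed, and the 2 highest markers of a list are named. Gm10222, Adipoq, Neat1, Cox8b and Ucp1 were named after their values were seen. The mitochondrial genes and all lists were chosen with earlier results of these data known.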

Additional observations from a re-analysis of the deposited data

How the results depend on the processing

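With 2 or 3 libraries per group, only large changes of well-counted genes can pass, and precision is least for mt-Atp8, mt-Nd3, mt-Nd4l and the tRNAs. At day 7 against uninjured, 4 mitochondrial genes were higher with DESeq2 size factors, upper-quartile scaling, mitochondrial genes left out of the totals, a minimum count of 50, only both groups in the fit, or near copies merged. Of all genes 5.9% to 7.44% were called higher in these. The count was 5 on total counts alone (adding mt-Cytb), where the median of all genes was 0.35 and 6.96% of them were called higher. It was 5 with no filter (adding mt-Co3), where 24 mitochondrial genes were tested and 6.11% of all genes were called higher. It was 6 with the DESeq2 test, and 2 when scaled to the mitochondrial protein-coding total, where 10.1% and 4.39% of all genes were called higher. Leaving out 1 uninjured or day 7 library at a time gave 0 to 9, where 1.28% to 14.2% of all genes were called higher. None was lower at day 7 under any of these, where 0.409% to 7.79% of all genes were. At day 3 against uninjured, 1 was higher when scaled to the mitochondrial protein-coding total, 2 with no filter and 2 with the DESeq2 test. In these settings 1.56%, 1.8% and 1.75% of all genes were called higher. In edgeR with TMM and the filter the count was 0, where 0.0107% of all genes were called higher. At day 7 against day 3 the count was 0 throughout, and at most 0.954% of all genes were called higher, with no filter. The difference in the mitochondrial share of counts between day 3 and uninjured was 0.00275 percentage points without the rRNAs, against 0.0224 with them, and 0.0135 to 0.0313 with 1 library left out.

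Replicate numbers in the titles were not used as pairs. Same-number libraries deviated from their group means with correlations of -0.0741 to 0.203, not all above 0.1. In groups this small the deviations depend on each other, so these correlations cannot decide whether libraries were paired. With a replicate block, 6 genes were higher at day 7, adding mt-Co3 and mt-Cytb, where 8.38% of all genes were called higher. The block turned mt-Cytb at day 3 against uninjured to -0.0459 and mt-Tq at day 7 against day 3 to 0.30.

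Each reversed log2 fold change was of a gene that edgeR did not call in that same comparison with all 8 libraries and TMM. Scaled to the mitochondrial protein-coding total, day 7 against uninjured gave -0.10 for mt-Nd1, -0.53 for mt-Nd2, -0.0835 for mt-Atp8, -0.28 for mt-Nd4 and -0.48 for mt-Nd5. Day 7 against day 3 then gave -0.41 for mt-Rnr1, -0.20 for mt-Rnr2, -0.23 for mt-Nd1, -0.022 for mt-Nd2, -0.62 for mt-Ts1, -0.12 for mt-Atp6 and -0.28 for mt-Co3; the scaling itself removes what the mRNAs share. mt-Ts1 at day 7 against day 3, near 0, was -0.0231 with DESeq2 size factors, -0.0758 with upper-quartile scaling, -0.0254 with no filter, -0.0216 with the DESeq2 test and -0.0251 with only both groups in the fit, and mt-Tq was 0.10 on total counts. Leaving out 1 library gave -0.0878 to 0.40 for mt-Nd2 and -0.0578 to 0.41 for mt-Nd5 at day 7 against uninjured. At day 3 it gave -1.41 to 0.21 for mt-Atp8, -0.42 to 1.09 for mt-Nd3 and -0.0258 to 0.24 for mt-Cytb. Between day 7 and day 3 it gave -0.0756 to 0.68 for mt-Rnr1, -0.61 to 0.43 for mt-Tq and -0.46 to 0.78 for mt-Ts1. The cause of these changes was not tested.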
